A study of Homo sapiens with 6 samples.

Results

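The genes described are 10 human genes that run the G1 phase of the cell cycle, chosen by name and not by their measured values out of the 58336 genes in the tables. They are the D-type cyclins CCND1, CCND2 and CCND3, the E-type cyclins CCNE1 and CCNE2, the kinases CDK4 and CDK6, and the kinase inhibitors CDKN2A, CDKN2B and CDKN1B. All 10 were found by their GENCODE symbol. The RNA came from clones of KGN, cells first grown from a human ovarian granulosa cell tumour. The WT/C134W clones, named 3.11 and 44b, carry the C134W mutation on 1 allele of the forkhead factor gene FOXL2, which granulosa cells use to keep their identity. The mutation is the hallmark of adult-type granulosa cell tumours. In the WT/WT clones, named 44a and 4.72, the mutation had been reverted by CRISPR/Cas9. A further library of each genotype has a title that joins both clone names (3.11-44b and 4.72-44a), so it may be a mix and was not taken as a separate clone. All cells were grown in the same serum-containing medium, and were harvested at 30 h from a transfection of unstated content. The labels record editing for the WT/WT cells alone, so genotype, editing and clone cannot be told apart with 2 clones per genotype. The number of cultures behind a library is not stated either. With 1 library per clone, the spread behind the p-values mixes clone, culture and library preparation. The main test also draws each gene's spread toward that of other genes.

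In early G1, D-type cyclins are made in response to growth signals and switch on CDK4 and CDK6, which phosphorylate the retinoblastoma protein RB. RB then lets go of the E2F factors, E2F activates CCNE1, CCNE2 and the replication genes, and cyclin E with CDK2 carries the cell into S phase. The INK4 proteins p16 (from CDKN2A, which also encodes the unrelated protein ARF) and p15 (from CDKN2B) block CDK4 and CDK6, while p27 of CDKN1B blocks cyclin E with CDK2. In mouse granulosa cells, Ccnd2 is the D-type cyclin known to respond to follicle-stimulating hormone.

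Library totals ran from 35332727 to 42137567 expected counts in WT/C134W and from 41923218 to 46613068 in WT/WT, so that 3 counts, the limit that a count of 0 allows, equal 0.0663 to 0.0781 CPM, for counting error only. CPM are read counts scaled by library size with the TMM method. Of 10 granulosa markers, NR5A1, INHBA and AMH were present in every library, whereas WT1, GATA4, AMHR2 and FSHR had 0 counts throughout. INHA and CYP19A1 were near the floor, with at least 1 library at 0 and none above 0.308 and 0.287 CPM. Of 10 markers of other cells, CD3E, CDH5 and DDX4 had 0 counts, CD68 lay between 63.6 and 74.3 CPM, PTPRC between 0.494 and 2.94 CPM and PECAM1 between 0.530 and 1.68 CPM, and the other 4 had at least 1 library at 0 and none above 0.755 CPM. FOXL2 itself had 9.26 and 10.1 CPM in clones 3.11 and 44b, against 7.38 and 4.87 CPM in 44a and 4.72. The joined libraries had 6.32 CPM in 3.11-44b, below WT/WT clone 44a, and 4.34 CPM in 4.72-44a. Counts per gene do not tell the FOXL2 alleles apart. The quasi-likelihood test of edgeR, run on the 4 single-clone libraries, left 0 of 16416 genes with an adjusted p under 0.05 (0%), the smallest adjusted p being 0.324, and 7.57% with an unadjusted p under 0.05. Limma voom also called 0 genes, DESeq2 called 1.72%, and edgeR without the low-count filter called 2.73%, none of them among the 10 genes. Every fold change below is therefore a measured value and not a called difference, and a p that misses the threshold does not show that the genotypes are alike.

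Promoter windows of 7 of the 10 genes, the 250 bases before each annotated start in RefSeq (GRCh38.p14), were searched for motifs, and 5 windows from 4 genes are printed. CDK4 and CDKN1B are shown as expressed genes with sites for families discussed here, MYC and the forkhead factors. The windows of CDKN2A, which has separate starts for ARF (upper) and p16 (lower), and of CDKN2B are shown because these genes had no counts. Capitals mark CACGTG (an E-box, the kind of site that MYC binds) in CDK4, TAAACA on either strand (a forkhead core) in CDKN1B, and GGGCGG on either strand (a GC box) in the others. Each motif was counted without regard to overlap with the others.
CDK4, chr12:57752311-57752560, minus strand: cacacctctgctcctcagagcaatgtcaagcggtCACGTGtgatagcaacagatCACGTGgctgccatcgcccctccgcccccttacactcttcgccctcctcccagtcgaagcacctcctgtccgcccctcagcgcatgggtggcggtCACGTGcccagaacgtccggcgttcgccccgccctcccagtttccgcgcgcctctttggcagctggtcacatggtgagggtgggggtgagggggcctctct
CDKN1B, chr12:12717118-12717367, plus strand: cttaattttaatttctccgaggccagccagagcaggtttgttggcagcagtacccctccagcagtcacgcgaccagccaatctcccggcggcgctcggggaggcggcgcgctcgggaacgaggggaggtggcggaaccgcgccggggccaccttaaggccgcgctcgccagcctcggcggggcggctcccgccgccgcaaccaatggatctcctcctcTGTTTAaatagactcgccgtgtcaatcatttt
CDKN2A, upper start, chr9:21995325-21995574, minus strand: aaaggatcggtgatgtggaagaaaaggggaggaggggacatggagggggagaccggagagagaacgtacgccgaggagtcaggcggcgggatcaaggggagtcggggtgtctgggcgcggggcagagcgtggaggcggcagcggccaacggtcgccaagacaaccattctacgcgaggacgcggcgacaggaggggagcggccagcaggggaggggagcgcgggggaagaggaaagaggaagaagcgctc
CDKN2A, lower start, chr9:21974858-21975107, minus strand: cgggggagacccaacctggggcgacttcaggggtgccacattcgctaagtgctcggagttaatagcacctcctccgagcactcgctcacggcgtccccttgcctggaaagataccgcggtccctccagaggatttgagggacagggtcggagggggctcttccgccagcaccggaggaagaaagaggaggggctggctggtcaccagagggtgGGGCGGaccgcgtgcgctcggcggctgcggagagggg
CDKN2B, chr9:22009306-22009555, minus strand: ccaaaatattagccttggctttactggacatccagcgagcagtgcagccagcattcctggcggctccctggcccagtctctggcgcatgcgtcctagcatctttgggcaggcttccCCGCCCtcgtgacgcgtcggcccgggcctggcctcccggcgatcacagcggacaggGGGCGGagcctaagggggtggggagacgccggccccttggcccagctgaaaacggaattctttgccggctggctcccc

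The CDK4 window held CACGTG 3 times, where 28 of 35116 upstream windows of the same length (0.0797%) held it at least 3 times. That window was picked for its sites after several motifs were searched, so this share is not a chance level. MYC itself had 71.2 and 80.3 CPM in WT/C134W clones 3.11 and 44b, against 78.2 and 107 CPM in WT/WT clones 44a and 4.72. The CDKN1B window held 1 forkhead core, where 11% of all windows held at least 1. The upper CDKN2A window held 0 GC boxes, the lower 1 and CDKN2B 2, where 42.6% of all windows held at least 1. The dinucleotide CG occurred 24, 20 and 18 times in these 3 windows and 19 and 27 times in those of CDK4 and CDKN1B, all above the median of 11. TTTNNCGC, an E2F-like sequence found in 5.92% of windows on either strand, occurred in none of the windows of these 7 genes. The windows of CCND1, CCND2 and CCNE2 were not searched, so nothing is said of E2F-like letters before CCNE2. A match in letters shows no binding, and a missing one says only that the letters are not in the window.

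Ranked by TPM (which also divides by transcript length and so allows genes to be compared), CCND1 was far above the other 9 genes, at 328 to 438 TPM over the 6 libraries. CDK4 came next at 106 to 144 TPM, then CCND3 at 52.2 to 77.4 TPM and CCNE2 at 20.3 to 26 TPM. These 4 ranges did not overlap. CDK6 (5.74 to 20.6 TPM), CDKN1B (8.28 to 18.7 TPM) and CCNE1 (8.35 to 13.6 TPM) overlapped each other, and CDK6 also reached into the range of CCNE2. CCND2 did not pass 0.07 TPM, and CDKN2A and CDKN2B were at 0 in every library. In bulk RNA of cycling cells, a different share of cells in a phase and a different level per cell cannot be told apart. The 7 genes above CCND2 passed the low-count filter and were tested. CCND2, CDKN2A and CDKN2B did not.

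**Figure D1:**
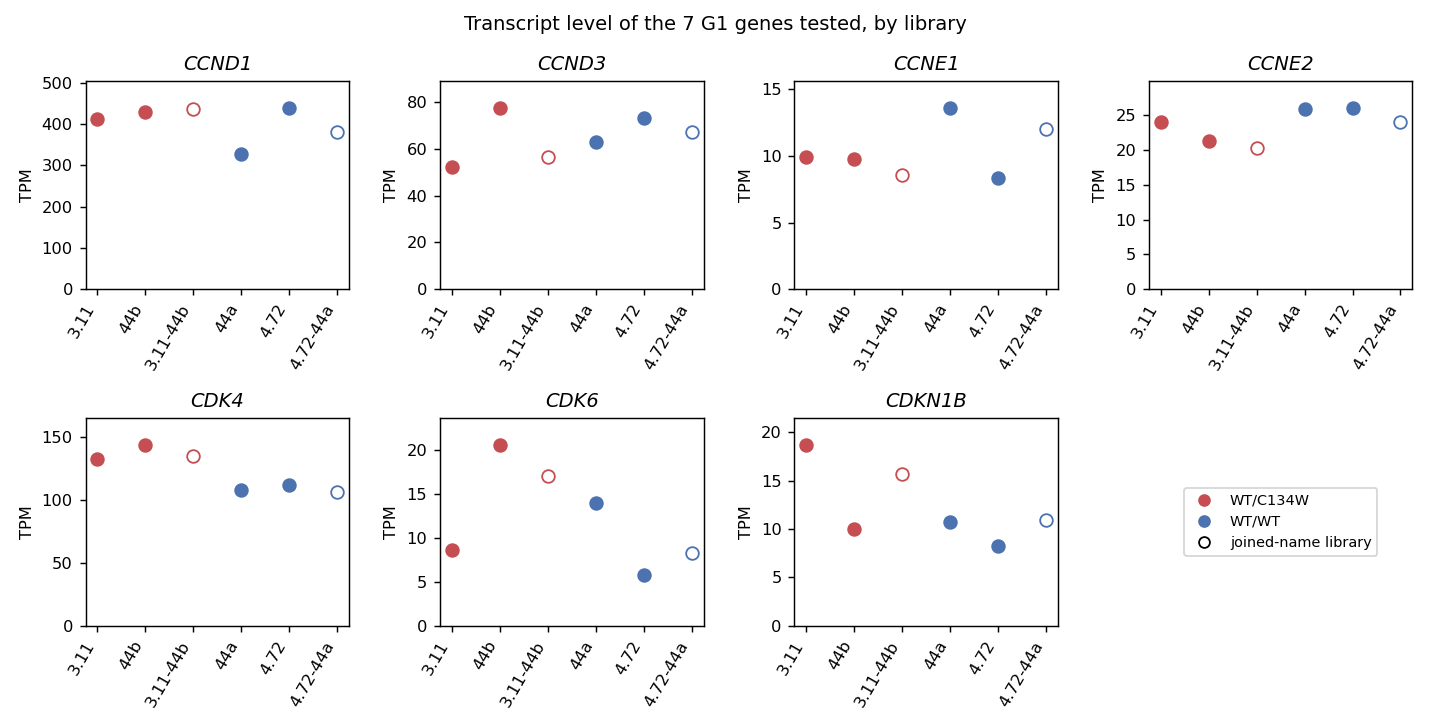
TPM of the 7 tested G1 genes in each library, WT/C134W in red and WT/WT in blue, with the joined-name libraries as open circles and each axis starting at 0. CDK6 was high in 44b and 44a and low in 3.11 and 4.72. CDK4 lay at 133 to 144 TPM in WT/C134W and at 106 to 111 TPM in WT/WT, joined libraries included. On the log2(TPM + 1) scale the median of all genes was itself 0.15, and the share of genes apart in TPM was not counted. In CPM, CDK4 nearly met between the genotypes, at 115.2 in 3.11 and 114.7 in 4.72.

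Of the D-type cyclins, CCND1 (ENSG00000110092, chromosome 11, 69641087 to 69654474, plus strand, GRCh38) had 900.0 and 988 CPM in WT/C134W clones 3.11 and 44b, against 854 and 1100 CPM in WT/WT clones 44a and 4.72. The WT/C134W values lay inside the WT/WT range, and the difference on the log2 scale, taken as WT/C134W over WT/WT here and below, was -0.04 ± 0.20 (SE from edgeR's F value, n = 2 clones each; adjusted p = 0.991). With library totals as the only scaling, which moved the median of all genes to 0.23, it was 0.18. The joined libraries had 973 CPM in 3.11-44b and 1027 CPM in 4.72-44a. Per length, CCND1 averaged 421 ± 11.8 TPM in WT/C134W and 383 ± 77.9 TPM in WT/WT (SD, n = 2), again with overlap.

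CCND3 (ENSG00000112576, chromosome 6, 41934933 to 42050357, minus strand) had 57.8 and 89.5 CPM in clones 3.11 and 44b, against 82.2 and 99.7 CPM in 44a and 4.72. Clone 3.11 was the low one, and 44b lay between the WT/WT clones. The log2 fold change of -0.30 ± 0.24 (adjusted p = 0.856, edgeR) was -0.02 without 3.11 and -0.65 without 44b. The joined libraries had 65.6 CPM in WT/C134W and 87.5 CPM in WT/WT. CCND1 supplied 88.7% and 84.7% of the summed D-type cyclin TPM in 3.11 and 44b, against 83.9% and 85.6% in 44a and 4.72, and CCND3 nearly all of the rest.

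CCND2 (ENSG00000118971, chromosome 12, 4273772 to 4305350, plus strand) had 11, 0 and 0 expected counts in 3.11, 44b and 3.11-44b, against 0, 7 and 3 in 44a, 4.72 and 4.72-44a. The count of 11 has an exact 95% Poisson interval of 5.49 to 19.7 and that of 7 one of 2.81 to 14.4. Its counts were at or near the detection limit in both genotypes, so a difference was not detectable at this depth. CCND2-AS1, which overlaps its start on the opposite strand, had 11 counts in 3.11 and 0 in the other 5 libraries.

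The E-type cyclins had lower normalised counts in both WT/C134W clones. CCNE1 (ENSG00000105173, chromosome 19, 29811898 to 29824308, plus strand) had 9.36 and 9.08 CPM in 3.11 and 44b, against 13.7 and 9.62 CPM in 44a and 4.72. The groups did not overlap, but 4.72 stood close to the WT/C134W clones and 44a alone was high. This gave a log2 fold change of -0.34 ± 0.30 (adjusted p = 0.867, edgeR), and -0.07 without 44a. In TPM the groups overlapped, with 9.95 and 9.81 TPM in 3.11 and 44b, against 13.6 and 8.35 TPM in 44a and 4.72.

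CCNE2 (ENSG00000175305, chromosome 8, 94879770 to 94896678, minus strand) had the smallest p of the tested genes. It had 25.3 and 22.4 CPM in 3.11 and 44b, against 37.3 and 35.9 CPM in 44a and 4.72, with 23.3 CPM in 3.11-44b and 39.3 CPM in 4.72-44a. Both WT/C134W clones lay below both WT/WT clones, as was true of 19.8% of all genes tested. The joined libraries, which may be mixes, had the same order. The log2 fold change was -0.62 ± 0.17 (unadjusted p = 0.0125, adjusted p = 0.593, edgeR), and it stayed between -0.71 and -0.54 when any 1 clone was left out. CCNE2 was the only one of the 7 that passed an adjusted p under 0.05 in any fit run (adjusted p = 0.0226, with all 6 libraries, where 3.18% of genes passed), and there the joined libraries are counted as further clones.

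The count of CCNE2 shares reads with a gene on the other strand. Its exons overlap those of INTS8, which encodes a subunit of the Integrator complex, over 1629 bases. In each of the 6 libraries neither gene's count was whole, yet the sum of both was whole to within 0.011. The same held in 6 of 6 libraries for CDK4 with TSPAN31 (1369 bases of shared exon sequence) and for CCND1 with LTO1 (497 bases), whereas the other 7 genes had whole counts throughout. Reads in these overlaps were thus divided between genes on opposite strands.

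INTS8 had 32.9 and 41.2 CPM in 3.11 and 44b, against 24.6 and 27.6 CPM in 44a and 4.72, the opposite order to CCNE2. CCNE2 took 43.4% and 35.2% of the pair's counts in 3.11 and 44b, against 60.2% and 56.5% in 44a and 4.72. The pair together had 58.2 and 63.6 CPM in 3.11 and 44b, against 61.9 and 63.6 CPM in 44a and 4.72. The sum was lower in the joined library of WT/C134W, with 57.3 CPM in 3.11-44b against 71.25 CPM in 4.72-44a. Fitted as 1 feature, an alternative chosen after seeing the data, the pair had a log2 fold change of -0.04 ± 0.15 (adjusted p = 0.988, edgeR). How far the division of shared reads contributed to the CCNE2 value was not tested. For CCND1 and CDK4 the partner was small: CCND1 took 97.5% to 97.8% of its pair and CDK4 85.6% to 90.6%, and the sums gave log2 fold changes of -0.04 and 0.07.

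**Figure D2:**
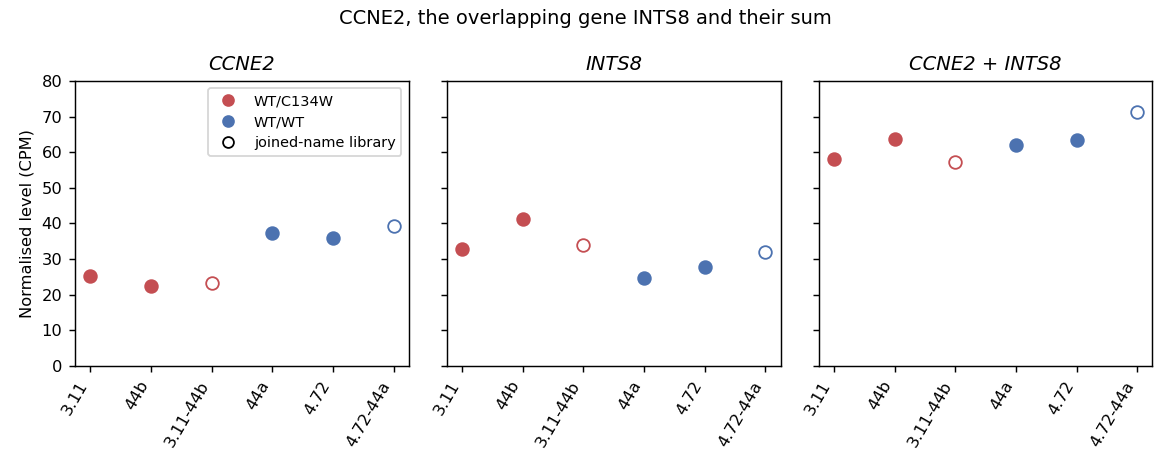
TMM-normalised CPM of CCNE2, of the overlapping gene INTS8 and of both summed, in each library, with WT/C134W in red, WT/WT in blue and the joined-name libraries as open circles. CCNE2 was lower and INTS8 higher in the WT/C134W libraries, while the sums of the 4 single clones lay between 58.2 and 63.6 CPM and overlapped. The joined libraries had sums of 57.3 CPM in WT/C134W and 71.25 CPM in WT/WT.

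The estimated mix of CCNE2 transcripts also differed. RSEM's length of a gene is the mean over its transcripts, weighted by their estimated abundance, and for CCNE2 it was 1809 and 1728 bases in 3.11 and 44b, against 2152 and 2010 bases in 44a and 4.72. The joined libraries had 1900 bases in 3.11-44b and 2414 bases in 4.72-44a. Because TPM divides by this length, the CCNE2 levels were closer in TPM, with 24.0 and 21.3 TPM in 3.11 and 44b, against 25.9 and 26 TPM in 44a and 4.72. On the log2(TPM + 1) scale the difference was -0.19 ± 0.20 (SE, limma; adjusted p = 0.763), where the median of all genes was 0.15. The CDKN1B length was 2322 and 2458 bases against 2657 bases in both WT/WT clones, and the CCND3 length 1894 and 1883 against 1962 and 1976 bases. For CDKN1B the joined libraries had 2070 bases in 3.11-44b and 2288 bases in 4.72-44a, the latter below both WT/C134W clones. In all, 3 of the 7 tested genes had shorter estimated lengths in both WT/C134W clones and 0 had longer ones, where 16.6% and 14.4% of the multi-transcript genes did so.

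CDK4 (ENSG00000135446, chromosome 12, 57747727 to 57756013, minus strand) had nearly level counts, at 115 and 118 CPM in 3.11 and 44b, against 104 and 115 CPM in 44a and 4.72. The groups were apart only by the narrow gap between 3.11 and 4.72. On the log2 scale of CPM the difference was 0.10 ± 0.15 (adjusted p = 0.936, edgeR), and 0.02 without 44a. On the log2(TPM + 1) scale it was 0.33 ± 0.16 (adjusted p = 0.576, limma), again beside a median of 0.15 for all genes.

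CDK6 (ENSG00000105810, chromosome 7, 92604921 to 92836594, minus strand) varied more within each genotype than any other tested G1 gene. It had 55.5 and 135 CPM in 3.11 and 44b, against 101 and 39.4 CPM in 44a and 4.72. The high clones were 44b and 44a, whose names share a stem, and the low ones 3.11 and 4.72, so the genotypes overlapped. Within WT/C134W the clones differed by 1.29 on the log2 scale and within WT/WT by 1.35, where the median gene differed by 0.36 and 0.31. A larger difference was found for 15.4% of genes within WT/C134W and for 13.9% within WT/WT. The log2 fold change between genotypes was 0.44 ± 0.65 (adjusted p = 0.936, edgeR), and its sign turned without 4.72 (-0.08) or without 44b (-0.34). The joined libraries lay between their clones, at 108 CPM in 3.11-44b and 65.2 CPM in 4.72-44a.

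The share of CDK6 in the summed TPM of both kinases was 6.13% and 12.5% in 3.11 and 44b, against 11.5% and 4.90% in 44a and 4.72. A noncoding gene on the opposite strand at the CDK6 start, AC002454.1, had 0 and 99 counts in 3.11 and 44b, against 27 and 7 in 44a and 4.72. Its counts were highest in the clones where CDK6 was high, and CDK6's own counts were whole in all 6 libraries.

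**Figure D3:**
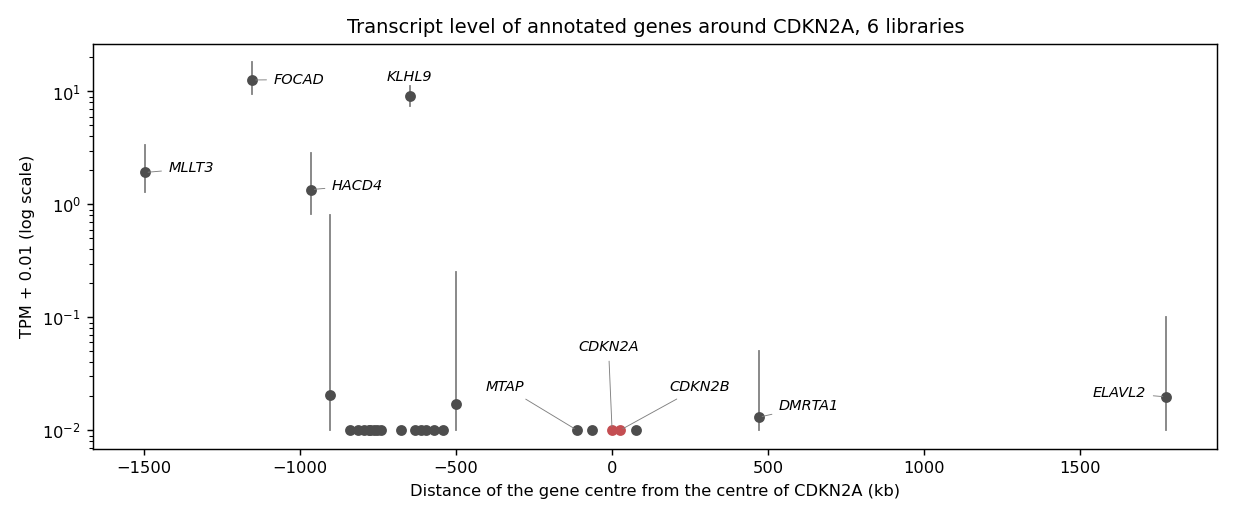
Level of the protein-coding genes within 2000 kb of CDKN2A, and of CDKN2B-AS1, against distance in kb, as TPM + 0.01 on a log scale, with points at the geometric mean of the 6 libraries and lines from the lowest to the highest. CDKN2A and CDKN2B (red), MTAP and CDKN2B-AS1 lie at the floor, and KLHL9 and FOCAD, on the lower-coordinate side, at 7.40 to 18.1 TPM.

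The INK4 genes CDKN2A (ENSG00000147889, chromosome 9, 21967753 to 21995301, minus strand) and CDKN2B (ENSG00000147883, chromosome 9, 22002903 to 22009363, minus strand) had 0 counts in all 6 libraries, out of 249360589 counts in total. The limit that this allows is 0.0663 to 0.0781 CPM per library. The run of protein-coding genes at or near 0 counts went beyond these inhibitors. MTAP, an enzyme of methionine salvage that is broadly expressed in human tissues, lies next to CDKN2A and also had 0 counts in every library, as did CDKN2B-AS1, the antisense RNA of the locus. The nearest protein-coding gene with at least 100 counts in a library was KLHL9, 632 kb away on the lower-coordinate side, at 9.20 to 11.1 TPM in WT/C134W and 7.40 to 9.04 TPM in WT/WT. On the other side it was TUSC1, 3681 kb away. Of the 13 protein-coding genes annotated between these edges, CDKN2A and CDKN2B included, 10 had 0 counts in every library and the others at most 9 in any. Several of the 13 are interferon genes. The protein-coding IFNA genes beyond KLHL9 also had 0 counts, although KLHL9, HACD4 and FOCAD around them had counts. The share of all protein-coding genes at 0 was not counted. The stretch was not free of reads, for CLIC4P1, a processed pseudogene centred 766 kb from CDKN2A on the TUSC1 side, had 6.83 to 10 TPM. Its highest count in a library was 112, and where these reads arose was not tested. The pattern was the same in both genotypes. HACD4, beyond KLHL9, had 14.9 and 4.95 CPM in 3.11 and 44b, against 4.83 and 8.23 CPM in 44a and 4.72. DNA was not measured, so absent and silent copies of these genes cannot be told apart from RNA.

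CDKN1B (ENSG00000111276, chromosome 12, 12715058 to 12722371, plus strand), the gene of p27, had 25.8 and 15.5 CPM in 3.11 and 44b, against 19.4 and 15.5 CPM in 44a and 4.72. Clone 3.11 alone was high, and 44b matched the lowest WT/WT clone. Its log2 fold change was 0.25 ± 0.30 (adjusted p = 0.913, edgeR), and its sign turned without 3.11 (-0.17). The joined libraries had 19.8 CPM in WT/C134W and 16.9 CPM in WT/WT.

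Among the other CDK inhibitors, CDKN1C (p57) had 0 counts throughout, while CDKN2C (p18) and CDKN2D (p19), the other INK4 genes, were expressed. CDKN2C had 86.7 and 43.1 TPM in 3.11 and 44b, against 45.7 and 27.9 TPM in 44a and 4.72, and CDKN2D had 41.6 and 24.2 TPM against 27.1 and 14.7 TPM. For both genes 3.11 was the highest clone and 4.72 the lowest, and the genotypes overlapped. CDKN1A (p21) was the most abundant inhibitor, with 188 and 415 TPM in 3.11 and 44b, against 118 and 161 TPM in 44a and 4.72. It made up 56.2% and 84.3% of the TPM of the 7 inhibitors in 3.11 and 44b, against 58.5% and 76.0% in 44a and 4.72, and CDKN1B 2.04% to 5.57%. The 7 inhibitors summed to 335 and 492 TPM in the WT/C134W clones, against 201 and 212 TPM in the WT/WT clones. The median of all genes on the log2(TPM + 1) scale was 0.15, and the share of genes apart in TPM was not counted. In CPM the genotypes overlapped for CDKN1A, with 240.4 in 3.11 and 242.4 in 4.72.

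**Figure D4:**
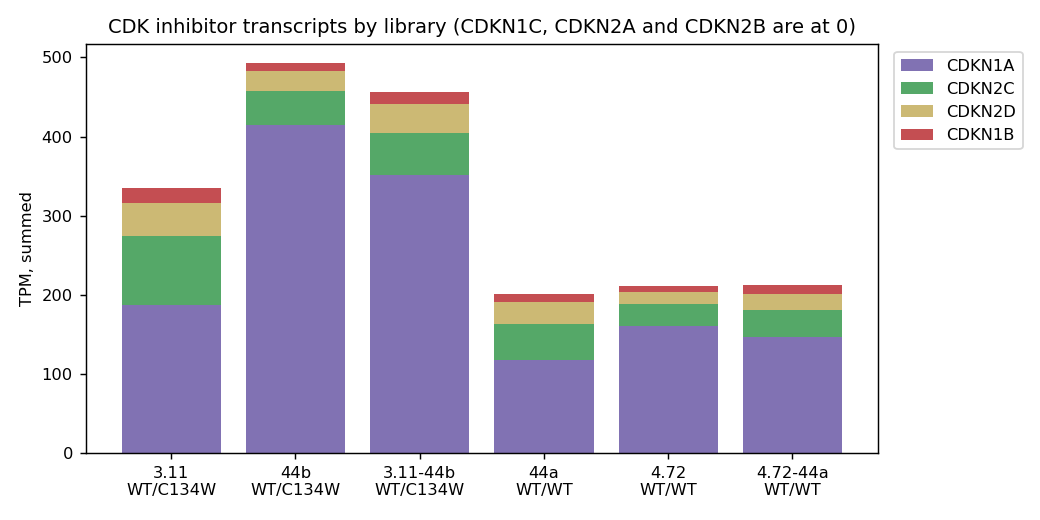
Stacked TPM of the 4 CDK inhibitors with counts, by library, WT/C134W on the left. CDKN1A (purple) takes most of each bar, CDKN1B (red) between 2.04% and 5.57%, and the summed level runs from 335 to 492 TPM in WT/C134W and from 201 to 212 TPM in WT/WT. Over all genes, the median difference on the log2(TPM + 1) scale was 0.15, and in CPM the clones overlapped for CDKN1A.

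The 7 tested genes had a median log2 fold change of -0.04, with 3 values above 0 and 4 below, beside a median of 0.01 over all 16416 genes, of which 50.6% lay above 0 (70.6% with library totals alone). With library totals alone, 4 of the 7 lay above 0 and their median was 0.18, beside 0.23 for all genes. No overlap between the 4 single clones was seen for 1 gene in the higher direction (CDK4) and 2 in the lower (CCNE1 and CCNE2), where the same was true of 19.6% and 19.8% of all genes, or 39.5% in either direction. CCNE2 was the only 1 of the 7 below an unadjusted p of 0.05. The replicate block and limma on log2(TPM + 0.1) called 0 of the 7, where 0.0305% and 0.00717% of all genes were called. The joined libraries lay between their clones for 5 of 7 genes in WT/C134W and 6 of 7 in WT/WT, beside 49.1% and 49.6% of all genes.

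Other parts of the G1 pathway were read from lists, none of whose members passed edgeR's test over all genes. Of 4 tested inhibitors outside the 10 genes (CDKN1A, CDKN2C, CDKN2D and the CDK phosphatase CDKN3), 4 had log2 fold changes of CPM above 0 (median 0.80), but the clones overlapped in CPM for each. For CDKN1A, whose clones did not overlap in TPM, the CPM values were 240.4 and 560.1 in 3.11 and 44b, against 170.9 and 242.4 in 44a and 4.72. Without 1 clone the median ran from 0.20 to 0.96. CDKN3, with 76.2 and 20.3 CPM in 3.11 and 44b, against 23.0 and 9.82 CPM in 44a and 4.72, was high in 3.11 alone. Of 5 genes of CDK2 and its activators, CDC25A, a phosphatase that activates CDK2, had 11.7 and 14.0 CPM in 3.11 and 44b, against 18.4 and 23.4 CPM in 44a and 4.72. MNAT1, a partner of CDK7, had the opposite order, at 36.2 and 34.6 CPM against 26.7 and 24.4 CPM. CDK2 itself stood at a log2 fold change of -0.06.

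Of 17 RB family, E2F and partner genes, 10 had positive and 7 negative fold changes (median 0.04), and RB1 stood at 0.04. The clones did not overlap for 4 lower genes (E2F1, E2F2, E2F3 and E2F4) and 4 higher ones (E2F5, E2F7, TFDP2 and LIN54). Over all genes tested, the clones did not overlap for 19.8% in the lower and 19.6% in the higher direction. E2F1 had 52.9 and 58.9 CPM in 3.11 and 44b, against 73.6 and 79.6 CPM in 44a and 4.72, a log2 fold change of -0.45 ± 0.15 (adjusted p = 0.647, edgeR), and E2F2, E2F3 and E2F4 had -0.58, -0.42 and -0.33. LIN54, a DNA-binding subunit of the DREAM and MuvB complexes, had 36.9 and 30.4 CPM in 3.11 and 44b, against 25.8 and 24.2 CPM in 44a and 4.72, and TFDP2, a dimer partner of E2F, had a log2 fold change of 0.60. Of 16 G1/S target genes, 10 had negative fold changes (median -0.10, but 0.12 with library totals alone). The clones did not overlap for 7 lower and 2 higher genes, beside the same 19.8% and 19.6% of all genes. CDT1, a licensing factor of replication origins, had 28.3 and 29.5 CPM in 3.11 and 44b, against 45.2 and 46.8 CPM in 44a and 4.72 (log2 fold change -0.66 ± 0.16, adjusted p = 0.593, edgeR). CDC6, which loads the replicative helicase together with CDT1, had -0.56 ± 0.18. PCNA stood at 0.04 and TYMS at 0.28. DESeq2 called CDT1 (adjusted p = 0.0496), where 1.72% of all genes were called, and the fit with all 6 libraries called E2F1 and CDT1.

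Of 14 genes listed for the turnover of G1 cyclins and p27, not all of which promote degradation, 9 had positive fold changes (median 0.09). SKP2, the ubiquitin ligase subunit that recognises p27, stood at 0.26 ± 0.24, with 38.2 and 25.5 CPM in 3.11 and 44b, against 26.5 and 26.7 CPM in 44a and 4.72. Its cofactor CKS1B had 110 and 67.0 CPM against 59.96 and 51.6 CPM, and the related CKS2 had 76.5 and 55.5 CPM against 35.5 and 22.7 CPM. CKS2, at 1.18 ± 0.29, was called by DESeq2 (adjusted p = 0.0229) and with all 6 libraries. Of 16 tested regulators upstream of D-type cyclins and p27, 10 had negative fold changes (median -0.24, and between -0.26 and 0.07 without 1 clone). SMAD3, a transducer of TGF-beta and activin signals, had 117 and 77.5 CPM in 3.11 and 44b, against 136 and 167 CPM in 44a and 4.72. FOXO3, a forkhead factor known to act on CDKN1B, had 58.6 and 64.4 CPM against 78.8 and 82.0 CPM. FOXO4, of the same family, had the opposite order, at 5.53 and 2.58 CPM against 1.04 and 1.81 CPM. For FOXO1 the clones overlapped. All 5 tested genes among the S to M cyclins and CDK1 had positive fold changes (median 1.12). The clones did not overlap for any of the 5, where 19.6% of all genes were higher without overlap. Without the low-count filter, all 5 passed the threshold, as did CDKN1A, CDKN3 and CKS2, where 2.73% of all genes passed. In that fit edgeR's weight on the spread pooled over genes (its median prior degrees of freedom) was infinite, against 3.71 in the main fit. Its p-values thus largely ignored each gene's own spread between clones. CDKN3, high in 3.11 alone, had an adjusted p of 6.76e-09 there and 0.757 in the main fit (edgeR). Cyclin A2 (CCNA2) had 123 and 66.9 CPM in 3.11 and 44b, against 54.6 and 33.0 CPM in 44a and 4.72, with clone 3.11 highest and 4.72 lowest. CCNB2 followed the same order, at 87.2 and 35.4 CPM against 29.6 and 20.9 CPM.

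**Figure D5:**
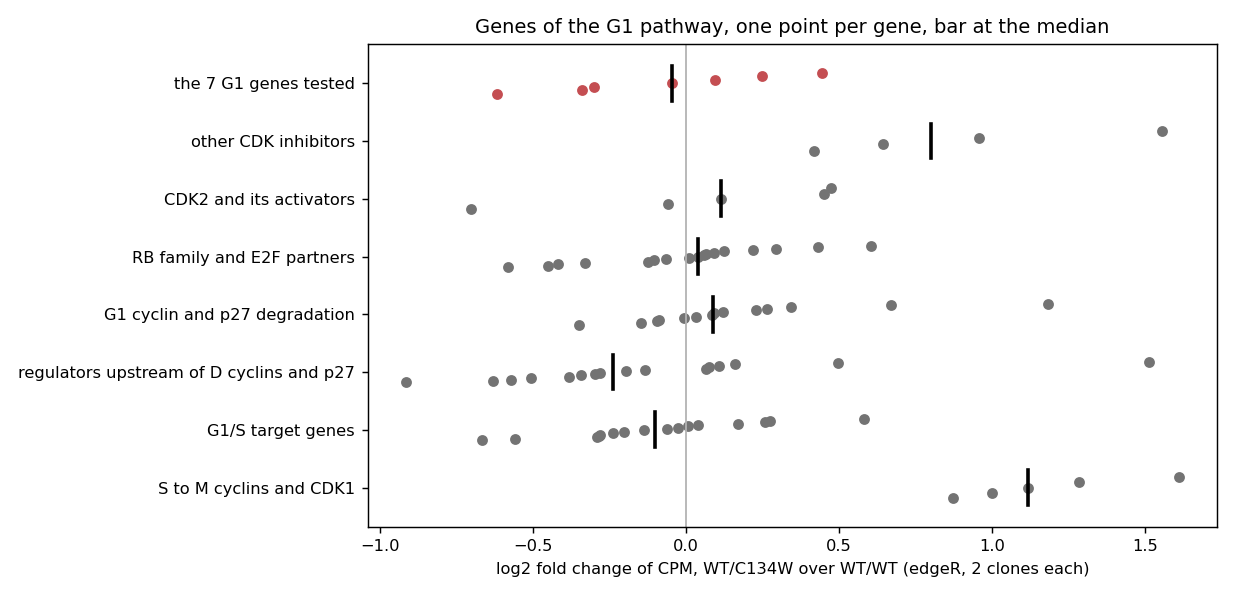
Log2 fold change of CPM, WT/C134W over WT/WT, for each tested gene of 8 lists, one point per gene with a bar at the list's median, the 7 tested G1 genes in red. The G1 genes spread from -0.62 (CCNE2) to 0.44 (CDK6) around a median of -0.04, and the S to M cyclins and CDK1 lie at 0.87 or above.

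Genes beside the 10 were read too, as 22 tested neighbours, with a median log2 fold change of 0.14. SAMD9, beside CDK6, had 68.6 and 57.4 CPM in 3.11 and 44b, against 44.3 and 26.9 CPM in 44a and 4.72, and so did not follow CDK6. TP53INP1, near CCNE2, had 7.22 and 9.39 CPM against 2.64 and 4.82 CPM.

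Over the 6 libraries, the protein-coding genes whose centred log2 CPM lay closest to each tested gene were found among 11172 genes, by root mean square difference. For CDK6 they were PERP (0.0737) and CYB5A (0.133), beside a median of 0.656 over all genes. PERP, a p53-induced membrane protein, had 33.7 and 73.3 CPM in 3.11 and 44b, against 55.7 and 21.8 CPM in 44a and 4.72. CCNE2 was closest to VCAN (0.0425), a matrix proteoglycan, and ARPC1B, and CCNE1 to IFNGR2 and DGKH. CCND1 was closest to TUBGCP6 (0.0209) and DGCR6L, CCND3 to DGKD and AP5Z1, CDK4 to NOP53 and ANP32A, and CDKN1B to GALNT7 and SRGAP2B. With 6 libraries, 2 of which may be mixes of the others, such likeness is a description of these libraries.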

How the data were processed

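The RNA-seq values of 6 KGN libraries were grouped by the genotype label. The deposited values are, per the file headers, the expected count (RSEM's estimate of reads per gene), TPM (per effective length), FPKM (not used here) and gene lengths, a weighted mean over transcripts. Per the submitters' processing notes, the tools included RSEM 1.3.1, STAR 2.7.6a, DESeq2 1.26.0 and Picard 2.8.1, in roles not given. The notes name the mouse build GRCm38, but the gene IDs are human, and neither the human build nor the strand setting is stated. The kit was stranded, per the labels' protocols. Symbols and coordinates (GRCh38) come from GENCODE release 29, which held 58216 of the 58336 IDs.

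Expected counts were rounded, and edgeR 4.0.16 in R 4.3.3 filtered (filterByExpr), TMM-scaled and tested them (robust glmQLFit, then glmQLFTest) on the 4 single clones, with Benjamini-Hochberg adjustment over all genes and a threshold of 0.05. SE is |log2 fold change| / √F. CPM values are TMM-normalised over 6 libraries. Exact permutation of 2 against 2 clones cannot give a two-sided p below 0.333, so none is given. Alternatives were DESeq2 1.42.0, limma 3.58.1 (voom, and log2 of TPM plus 1 or 0.1, with and without a mean TPM of at least 1), all 6 libraries, other scalings and filters, each clone left out, a block pairing 44a with 44b, and sums with overlapping genes. The code was tested on simulated data. The genes and lists were chosen with earlier results of these data known. All members are named, with the 2 to 4 genes of smallest p of each other list and the 2 closest genes to each member. Of the genes that overlap a member, INTS8, TSPAN31, LTO1, CCND2-AS1, CDKN2B-AS1 and AC002454.1 are described. MARCH9, which overlaps CDK4, and NDUFAF6, which overlaps CCNE2, had counts in every library and are not described. Genes named for contrast (CDK2, RB1, E2F4, E2F5, E2F7, TFDP2, FOCAD, TUSC1, PCNA, TYMS, SKP2, MYC, FOXO1, FOXO4) were chosen after their values were seen. MIZ1 and CDK6-AS1 matched no symbol. Promoter windows come from RefSeq (GRCh38.p14).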

Additional observations from a re-analysis of the deposited data

How the results depend on the processing

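The count of genes called was 0 in edgeR's main fit (1243 at an unadjusted p under 0.05), 511 with all 6 libraries, 283 with DESeq2, 664 without the low-count filter, 5 with a replicate block that put 44b beside 44a and 3.11 beside 4.72, and 1 with limma on log2(TPM + 0.1). It was 0 under the other alternatives, each clone left out included. Of the tested G1 genes, 0 were called in the main fit and 1 (CCNE2) with all 6 libraries, and 0 under every other alternative. The labels do not pair the clones, and the block changed no call among these genes. With the block, CDK6 had a log2 fold change of 0.46 ± 0.18 (SE; unadjusted p = 0.0407, adjusted p = 0.615, edgeR). The log2 fold change of CCND1 changed sign with library totals alone (0.18) and with limma on log2(TPM + 1), log2(TPM + 0.1) and log2(TPM + 1) without a TPM filter (0.15 each), and ran from -0.23 to 0.14 without 1 clone. Without 1 clone, CDK6 ran from -0.34 to 1.27 and CDKN1B from -0.17 to 0.57, both with a change of sign. CCND3 (-0.65 to -0.02), CCNE1 (-0.58 to -0.07), CCNE2 (-0.71 to -0.54) and CDK4 (0.02 to 0.16) kept their sign. The cause of these shifts was not tested. At these depths, CCND2, CDKN2A and CDKN2B could not be compared. With 2 clones per genotype, the spread between clones limits every comparison.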
